A study of Rattus norvegicus with 20 samples.

Results

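Livers of rats labelled rosiglitazone were compared with livers of obese rats in a study of male Zucker diabetic fatty (ZDF) rats, a line that is genetically predisposed to obesity and type 2 diabetes, and of lean control rats. The comparison used 10 of the 20 liver arrays, 5 per group and 1 array per rat, each given as a separate biological replicate in the labels. The other 10 arrays, 5 labelled resveratrol and 5 lean control, entered the same model and serve as further points of comparison. Each array measured total RNA of whole liver, hybridised to Affymetrix Rat Gene ST strips, and the values were on a log2 scale, so that a difference of 1 is a 2-fold difference. Of 14557 genes with a probe set of their own, 9481 lay above the median of their array in at least 5 arrays and were tested.

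The rosiglitazone rats, the resveratrol rats, the obese rats and the lean control rats were all male, carried the strain tag Zucker, lived in individual cages under a reverse light-dark cycle and ate freely. The obese rats had a stock diet for 6 weeks and the lean control rats a standard chow. The labels give neither the dose nor the duration of rosiglitazone, nor the diet, age or body type of the treated rats. A group name therefore stands for everything that was done to those 5 rats. The tissue label was checked against hepatocyte markers. None of the 13 tested markers was called between rosiglitazone and obese livers (median difference 0.04), and their mean log2 level was 10.46, 10.42, 10.44, 10.39 and 10.35 in rosiglitazone rats 1 to 5, against 10.29, 10.38, 10.42, 10.41 and 10.28 in obese rats 1 to 5. Pairs of the 20 arrays correlated at 0.947 to 0.982 over the 9481 tested genes, and no arrays were identical. Array medians lay between 2.36 and 2.53. Levels near these values are close to the floor of the arrays, where the size of a difference is poorly determined.

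Rosiglitazone is a thiazolidinedione, a drug that binds and activates the nuclear receptor PPARγ. PPARγ forms a dimer with the retinoid X receptor and switches on genes of fatty acid uptake, lipid droplets and adipocyte differentiation. It is most abundant in fat, and it is also present in macrophages. In fatty livers of rodents its level in hepatocytes can be raised, and thiazolidinediones are known to improve the action of insulin, in large part through adipose tissue.

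Between rosiglitazone and obese livers 142 of 9481 genes, 1.5% of those tested, were called at an adjusted p below 0.05. The 99 genes that were higher made up 1.04% of the tested genes and the 43 that were lower made up 0.454%. Counts of called members of a gene list below are to be read beside these shares. The median size of the difference was 0.75 among higher and 0.77 among lower genes, and 22 higher and 16 lower genes differed by at least 1. Over all tested genes the median difference was -0.004, and 95% of them differed by less than 0.48. The 3 largest differences among genes with an established name were A2m and Igfbp2, which were higher, and Dhrs7l1, which was lower. In the text, a difference is rosiglitazone minus obese unless another pair is named, ± after a difference stands for its standard error, intervals are at 95% and not adjusted, and adjusted p-values are those of limma after Benjamini-Hochberg correction over all 9481 genes. A p that misses the threshold does not show equal levels.

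**Figure D1:**
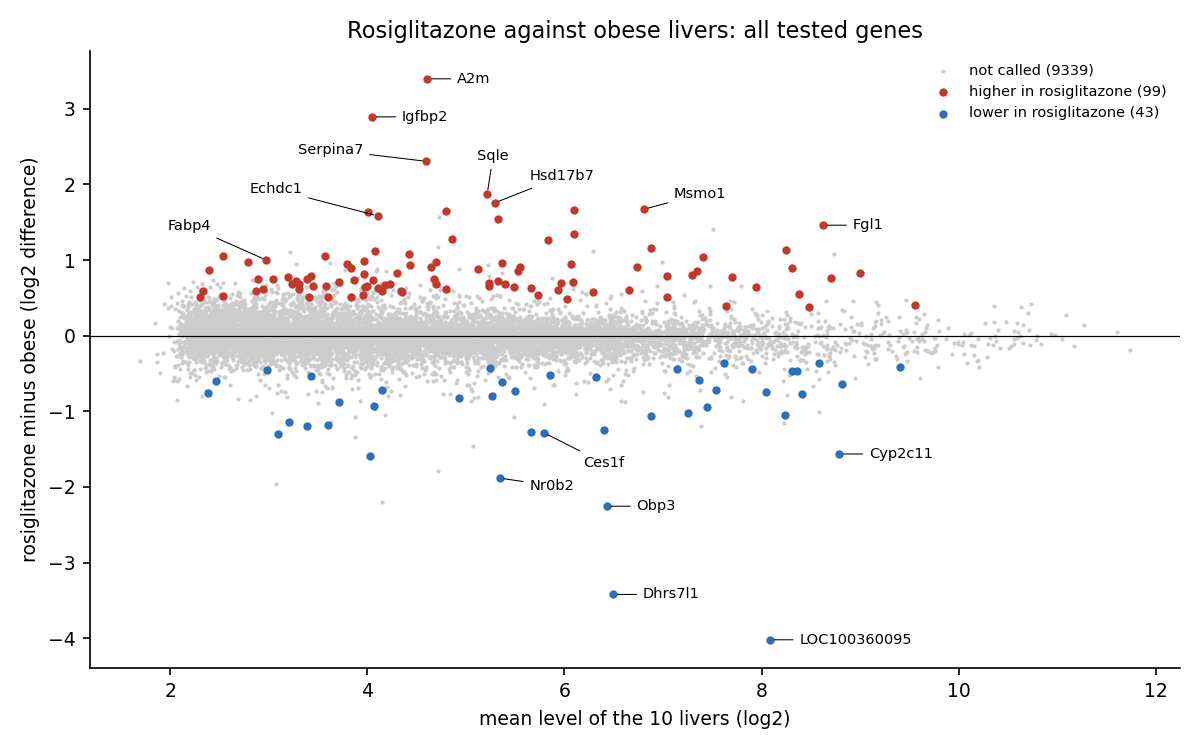
Difference between rosiglitazone and obese livers (log2, vertical) against the mean log2 level of each of 9481 genes over both groups (horizontal), with the called genes in colour. The 99 higher and 43 lower called genes are spread over low and high levels, and the 9339 genes that did not pass lie around 0.

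With 5 rats per group, many calls stood close to the threshold. Each of the 10 rosiglitazone and obese arrays was left out in turn. Of the 142 genes, 55 (44 higher and 11 lower) passed whichever of the 10 was missing. These are named below as calls that held in every leave-one-out fit. In 118 of the 142 called genes the rosiglitazone and obese values did not overlap. A lack of overlap given below for a called gene therefore adds little to the call. Omitting 1 rosiglitazone array gave 84 calls for rat 1, 122 for rat 2, 126 for rat 3, 74 for rat 4 and 85 for rat 5. Omitting 1 obese array gave 129 calls for rat 1, 82 for rat 2, 69 for rat 3, and 80 each for rats 4 and 5.

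Markers of macrophages were higher in rosiglitazone livers. Kupffer cells are macrophages that live in the sinusoids of the liver, where they take up particles, lipids and old red cells from portal blood. Of 23 tested markers of macrophages and Kupffer cells, 13 were higher and 0 were lower, 21 of the 23 differences were above 0 and their median was 0.65, against 1.04% higher calls and a median of -0.004 over all tested genes. Without single arrays 9 to 12 of them passed. The mean level of the 23 genes was 5.59, 5.38, 5.43, 5.62 and 5.83 in rosiglitazone rats 1 to 5, against 4.79, 4.95, 4.79, 4.79 and 5.01 in obese rats 1 to 5. The groups did not overlap.

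Scavenger and pattern receptors led the list. Marco, a class A scavenger receptor that binds bacteria and modified lipoproteins, had log2 levels of 7.43, 6.39, 6.61, 6.85 and 7.33 in rosiglitazone rats, against 4.80, 5.99, 4.88, 4.73 and 5.91 in obese rats. All rosiglitazone values lay above all obese values, with a difference of 1.66 ± 0.32 (adjusted p = 0.00772). Cd5l, a secreted protein of tissue macrophages also known as AIM, had 6.22, 5.93, 6.15, 5.76 and 6.42 in rosiglitazone rats, against 3.87, 4.93, 4.64, 4.85 and 4.47 in obese rats and differed by 1.55 ± 0.18 (adjusted p = 4.77e-05). This was a 2.92-fold higher level (95% interval 2.27 to 3.77). Vsig4, a complement receptor of Kupffer cells, had 6.60, 6.12, 6.33, 6.63 and 6.65 in rosiglitazone rats, against 5.27, 5.17, 5.07, 5.10 and 5.40 in obese rats and differed by 1.27 ± 0.19 (adjusted p = 0.000848). These 3 calls held in every leave-one-out fit.

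The heme and lysosome markers of macrophages moved in the same direction. Hmox1, heme oxygenase, which breaks down heme from engulfed red cells, had 5.50, 5.35, 5.51, 5.55 and 5.58 in rosiglitazone rats, against 4.36, 4.26, 3.996, 4.22 and 4.29 in obese rats and differed by 1.27 ± 0.21 (adjusted p = 0.00221). Cd68, a lysosomal membrane glycoprotein, had 5.50, 5.27, 5.59, 5.68 and 5.78 in rosiglitazone rats, against 4.56, 4.63, 4.85, 4.55 and 4.82 in obese rats and differed by 0.88 ± 0.14 (adjusted p = 0.00132). The 5 rosiglitazone livers lay within a narrow band for Hmox1 and above every obese liver for both genes. The receptor for the growth factor that maintains macrophages, Csf1r, differed by 0.86 ± 0.16 (adjusted p = 0.00694), the folate receptor Folr2 by 0.81 ± 0.15 (adjusted p = 0.00512), and the Fc receptor chain Fcer1g by 0.70 ± 0.12 (adjusted p = 0.00234). C1qa, whose product is 1 chain of the complement protein C1q made by macrophages, differed by 0.60 ± 0.10 (adjusted p = 0.00364). All 6 of these held in every leave-one-out fit.

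C1qb, C1qc, Clec4f and Aif1 rose by 0.64, 0.63, 0.71 and 0.66, with no overlap between groups. Their calls were lost without 6, 8, 5 and 9 of the 10 arrays taken 1 at a time, with adjusted p of up to 0.0837, 0.104, 0.0722 and 0.117. Among the 10 markers that did not pass, Adgre1, a long-used macrophage marker of mice, had a difference of 0.62 ± 0.18 (adjusted p = 0.1), and 2 markers had a difference below 0, the lysozyme gene Lyz2 (-0.03) and the lipopolysaccharide co-receptor Cd14 (-0.11), named after their values were seen. Rosiglitazone rat 5 had the highest level of 10 of the 13 called markers. In the obese group the most for any rat was 5 of the 13, in rat 2.

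In whole liver, more macrophages and more RNA per macrophage cannot be told apart. Other myeloid-type genes outside the marker list were among the calls, chosen for mention after their values were seen. Cd4, which rat macrophages express as well as helper T cells, had 6.57, 6.43, 6.26, 6.71 and 6.72 in rosiglitazone rats, against 5.85, 5.53, 5.52, 5.42 and 5.66 in obese rats and differed by 0.94 ± 0.13 (adjusted p = 0.000424). Adgre4, a receptor of the same family as Adgre1, differed by 0.98 ± 0.15 (adjusted p = 0.00131). The T cell and NK cell list gave 0 calls among 7 tested genes, with mean levels of 2.64 to 2.83 in rosiglitazone livers and 2.59 to 2.82 in obese livers. Of 20 such markers on the array only these 7 passed the filter. Their levels lay near the array medians of 2.36 to 2.53, where a difference could hardly show.

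Genes of antigen presentation by MHC class II, which loads peptides for helper T cells, were higher in 4 of 7 tested members, with a median of 0.68. Cd74, the invariant chain that guides class II molecules, had 7.77, 8.13, 7.58, 8.83 and 7.32 in rosiglitazone rats, against 6.90, 6.68, 7.15, 6.88 and 6.84 in obese rats and differed by 1.04 ± 0.21 (adjusted p = 0.0125). RT1-DMb, a chain of the peptide exchange factor, differed by 0.68 ± 0.14 (adjusted p = 0.0108). Both held in every leave-one-out fit. RT1-Bb had 4.15, 5.36, 4.31, 5.51 and 3.84 in rosiglitazone rats, against 3.38, 3.34, 3.73, 3.58 and 3.52 in obese rats. Rosiglitazone rats 2 and 4 stood more than 1 log2 unit above the other 3 rosiglitazone rats for RT1-Bb, and rat 4 was highest for all 4 called class II genes. RT1-Bb differed by 1.12 ± 0.27 (adjusted p = 0.0365), a call lost when any 1 of 7 arrays was left out (adjusted p 0.0988 without rosiglitazone rat 4). RT1-Da differed by 0.91 ± 0.23 (adjusted p = 0.0442), a call lost when any 1 of 8 was left out (0.11 without rosiglitazone rat 2). The class II list had 2 calls when any 1 obese rat, rosiglitazone rat 2 or rosiglitazone rat 4 was left out.

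Markers of the other cell types of liver gave few calls. Endothelial markers had 1 higher call of 17, Vwf, the von Willebrand factor, at 0.68 ± 0.16 (adjusted p = 0.0393), a call that 9 of the 10 single-array omissions ended (adjusted p up to 0.107), while the sinusoidal markers Stab1, Stab2 and Lyve1 had differences of 0.08, 0.08 and 0.11. Stellate cell (17 tested), B cell (4), neutrophil (4), cholangiocyte (5) and red cell (3) markers had 0 calls. Only 4 of 8 B cell and 4 of 12 neutrophil markers on the array passed the filter. Their mean levels in rosiglitazone livers were 2.73 to 2.96 and 2.06 to 3.16, near the floor, so these 2 lists say little. Adipocyte markers had 2 higher calls of 7, Fabp4 and Cfd. Adipoq, the adiponectin gene and a defining marker of fat cells, had 2.34, 3.18, 2.94, 2.92 and 2.72 in rosiglitazone rats, against 2.36, 2.72, 1.97, 2.82 and 2.88 in obese rats with a difference of 0.27 ± 0.22 (adjusted p = 0.701), and Plin1 had a difference of -0.09. These Adipoq levels lie near the array medians of 2.36 to 2.53, where a difference could hardly show. The adipocyte list averaged 3.23 to 3.48 in rosiglitazone livers and 3.04 to 3.23 in obese livers.

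**Figure D2:**
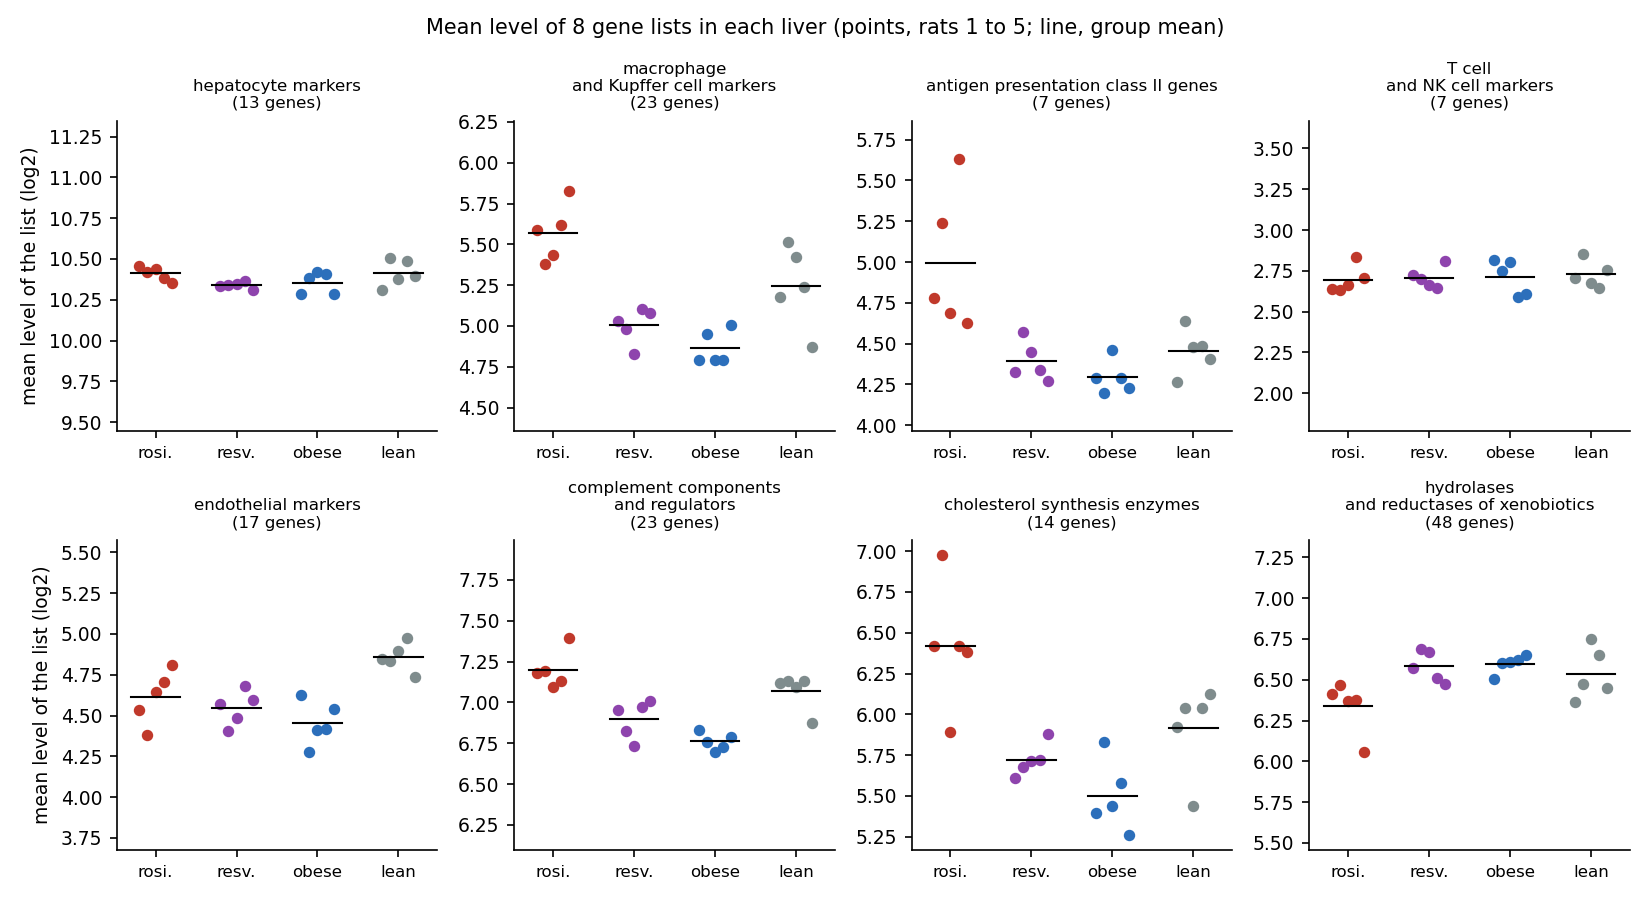
Mean log2 level of the tested genes of 8 lists (vertical) in each rat, with rosiglitazone, resveratrol, obese and lean control groups left to right and a line at each group mean. Rosiglitazone livers lie above obese livers for macrophage markers, class II genes, complement and cholesterol enzymes, whereas hepatocyte markers overlap between 10.35 and 10.42.

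Genes of complement, the cascade of plasma proteins that tags and lyses microbes, were higher in 10 of 23 tested members and lower in 0, with a median of 0.41. Of these 10, 4 are also macrophage markers (Vsig4, C1qa, C1qb and C1qc). C5, which hepatocytes make and which starts the membrane attack complex, had 9.10, 9.06, 8.94, 8.89 and 9.43 in rosiglitazone rats, against 8.50, 8.46, 8.14, 8.27 and 8.26 in obese rats, a difference of 0.76 ± 0.15 (adjusted p = 0.00938). Other components made by hepatocytes, C1r, C3, C8a, C8b, C8g and C9, did not pass, with differences between -0.21 (C8g) and 0.24 (C9). They are only some of the 13 members that did not pass, and 21 of the 23 differences in the list were above 0. The C4b-binding protein, an inhibitor of the cascade, has 2 chains. C4bpb had 8.66, 8.84, 8.83, 8.43 and 9.04 in rosiglitazone rats, against 7.76, 7.88, 7.83, 8.12 and 7.73 in obese rats and differed by 0.90 ± 0.15 (adjusted p = 0.00274). C4bpa differed by 0.82 ± 0.18 (adjusted p = 0.0217), and its rosiglitazone rat 5 value of 9.89 lay above the other 4 rats at 9.25 to 9.34. The C4bpa call was lost when any 1 of 4 arrays was left out (0.0655 without rosiglitazone rat 5), and those of C5 and C4bpb held throughout.

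Cfd, adipsin or complement factor D, which starts the alternative pathway, had 4.04, 4.34, 4.27, 4.30 and 4.35 in rosiglitazone rats, against 3.67, 3.02, 3.35, 3.25 and 3.31 in obese rats and differed by 0.94 ± 0.17 (adjusted p = 0.00512), in every leave-one-out fit. The pattern receptor Fcna and the anaphylatoxin receptor C3ar1 rose by 0.73 and 0.75, with each call lost when any 1 of 7 arrays was left out (up to 0.089 and 0.106). The complement list had 5 calls without rosiglitazone rat 5 or obese rat 3 or 4, and 6 without rosiglitazone rat 1 or 4 or obese rat 2. Macrophage markers rose in the same livers, with mean levels of 5.38 to 5.83 in rosiglitazone livers and 4.79 to 5.01 in obese livers, and their part in the complement difference was not tested.

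Among prostaglandin pathway genes 3 of 23 were higher, against 1.04% of all tested genes. Ptgs1, cyclooxygenase 1, had 5.08, 4.94, 4.93, 5.24 and 5.32 in rosiglitazone rats, against 4.32, 4.22, 3.91, 4.25 and 4.24 in obese rats and differed by 0.91 ± 0.10 (adjusted p = 4.77e-05), and Hpgds, the hematopoietic synthase of prostaglandin D, had 4.72, 4.97, 4.49, 5.20 and 5.12 in rosiglitazone rats, against 4.11, 3.90, 3.84, 4.06 and 3.88 in obese rats and differed by 0.94 ± 0.15 (adjusted p = 0.00192). Neither gene overlapped between groups and both calls held in every leave-one-out fit. Pla2g4a, the phospholipase that releases arachidonic acid, differed by 0.51 ± 0.13 (adjusted p = 0.0442) and was lost without each array in turn (up to 0.104). Of 38 cytokine and chemokine genes, the chemokine Ccl6 (0.80 ± 0.16, adjusted p = 0.0141) and the adhesion molecule Vcam1 (0.67 ± 0.16, adjusted p = 0.0319) were higher, the first in every leave-one-out fit and the second lost when any 1 of 6 arrays was left out (up to 0.0905). Interferon-stimulated genes had 0 calls of 26, with a median of -0.10. Of 31 lysosomal genes 4 were higher, namely Cd68 above, the protease Lgmn (0.60 ± 0.14, adjusted p = 0.029), the glycoprotein Gpnmb (0.62 ± 0.16, adjusted p = 0.0442) and the ceramidase Asah1 (0.53 ± 0.13, adjusted p = 0.0442). The last 3 were lost when any 1 of 6, 7 and 10 arrays was left out (up to 0.0785, 0.124 and 0.119), and the list had 1 call without rosiglitazone rat 4 or obese rat 4 or 5. The macrophage markers moved with these genes as well, and their part was not tested.

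Enzymes of cholesterol synthesis were higher in rosiglitazone livers. The pathway leads through mevalonate and isoprenoids to squalene, which is oxidised, closed into lanosterol and trimmed to cholesterol, and the transcription factor SREBP2 raises many of its genes when cells lack sterols. Of 14 tested enzymes 8 were higher and 0 lower, 13 of the 14 differences were above 0, and the median was 0.72. The exception was Ggps1, an enzyme of a side branch, with a difference of -0.14. Without single arrays 6 to 8 of the enzymes passed, with the lowest number without obese rat 5. The mean level of the 14 genes was 6.42, 6.98, 5.89, 6.42 and 6.38 in rosiglitazone rats 1 to 5, against 5.40, 5.83, 5.44, 5.58 and 5.26 in obese rats 1 to 5. The groups did not overlap, and the nearest values were rosiglitazone rat 3 at 5.89 and obese rat 2 at 5.83.

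The promoters of 3 of these enzymes are printed to show the region upstream of genes that moved together, as 250 bases before to 50 after the start in RefSeq (build GRCr8), 5′ to 3′ on the gene's strand, with CCAAT in either orientation (CCAAT or ATTGG) in capitals. Hsd17b7 lies at chr13:84722705-84723004 (minus strand), Fdps at chr2:176804767-176805066 (minus strand) and Msmo1 at chr16:29746863-29747162 (plus strand).
Hsd17b7: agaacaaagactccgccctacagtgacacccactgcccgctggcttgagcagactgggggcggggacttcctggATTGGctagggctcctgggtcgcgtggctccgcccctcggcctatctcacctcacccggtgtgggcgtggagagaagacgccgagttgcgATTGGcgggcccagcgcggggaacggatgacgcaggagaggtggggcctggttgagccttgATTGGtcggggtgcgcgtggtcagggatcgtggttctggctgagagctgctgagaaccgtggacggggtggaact
Fdps: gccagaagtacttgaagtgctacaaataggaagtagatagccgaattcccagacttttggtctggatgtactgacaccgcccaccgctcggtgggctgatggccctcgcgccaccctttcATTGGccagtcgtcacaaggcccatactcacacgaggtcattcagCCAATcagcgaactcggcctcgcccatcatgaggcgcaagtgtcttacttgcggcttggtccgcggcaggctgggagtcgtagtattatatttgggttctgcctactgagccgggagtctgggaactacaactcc
Msmo1: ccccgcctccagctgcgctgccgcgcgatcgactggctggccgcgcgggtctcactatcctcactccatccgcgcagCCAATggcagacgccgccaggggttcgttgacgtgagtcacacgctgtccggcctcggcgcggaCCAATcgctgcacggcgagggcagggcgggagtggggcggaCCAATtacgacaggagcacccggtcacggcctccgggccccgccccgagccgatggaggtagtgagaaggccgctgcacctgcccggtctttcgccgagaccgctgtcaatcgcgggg
Of the 8 called enzymes 7 had a promoter in the table. All 7 held CCAAT on 1 strand or the other, against 3 of 4 promoters of enzymes that were not called and 37.5% of all 33469 promoters. The letters TCACNCCAC of a sterol response element occurred in 0 of 7 called enzymes, 0 of 4 that were not called and 1.12% of all promoters. DR1, a direct repeat of AGGTCA with 1 base between the copies, which PPAR and RXR bind as a pair, occurred in 0 of 7, 0 of 4 and 0.0538% of all. The PU.1 letters GAGGAAGT occurred in 0 of 7, 0 of 4 and 2.42% of all. Of the 13 called macrophage markers 9 had a promoter to search, and DR1 and the PU.1 letters each occurred in 0 of these 9. Searched on both strands likewise, the E-box letters CACGTG occurred in 1 of 7 and 0 of 4 (6.42% of all). The GC-rich letters GTGGGCG occurred in 4 of 7 and 1 of 4 (7.12% of all). The shorter sterol letters CACCCCA occurred in 2 of 7 and 0 of 4 (6.93% of all). The searches for CCAAT, the E-box, the GC-rich letters and the shorter sterol letters were chosen after the data were seen. A match describes these letters only. Letters as rare as those of the sterol response element, DR1 and PU.1 would mostly be missing from so few promoters. Their absence therefore does not show that a factor has no site there.

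Early in the pathway, Idi1, which isomerises isopentenyl diphosphate, had 5.40, 6.60, 4.51, 5.87 and 5.73 in rosiglitazone rats, against 3.60, 5.02, 3.71, 3.94 and 3.59 in obese rats. Obese rat 2 exceeded rosiglitazone rat 3, and the difference was 1.65 ± 0.38 (adjusted p = 0.029), a call lost when any 1 of 8 arrays was left out (up to 0.0826). Fdps, farnesyl diphosphate synthase, had 7.37, 7.93, 6.82, 7.42 and 7.78 in rosiglitazone rats, against 6.19, 6.78, 6.20, 6.27 and 6.06 in obese rats, with every rosiglitazone rat above every obese rat, and differed by 1.16 ± 0.22 (adjusted p = 0.006). The mevalonate enzymes Pmvk and Mvd had differences of 0.33 ± 0.16 (adjusted p = 0.392) and 0.39 ± 0.21 (adjusted p = 0.47).

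Squalene is oxidised by Sqle, which had 6.26, 7.33, 4.93, 6.25 and 6.01 in rosiglitazone rats, against 4.07, 5.44, 4.22, 4.36 and 3.30 in obese rats. The difference was 1.88 ± 0.40 (adjusted p = 0.0182), the largest of the list, and the call was lost only without obese rat 5 (0.0648). Obese rat 2 overlapped rosiglitazone rat 3 here also. Squalene synthase, Fdft1, had a difference of 0.65 (adjusted p = 0.302).

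The later steps, which remove methyl groups and move double bonds, held 5 further calls, all of which held in every leave-one-out fit. Hsd17b7, a 3-ketosteroid reductase, had 6.60, 6.79, 5.46, 6.16 and 5.86 in rosiglitazone rats, against 4.41, 4.62, 4.62, 3.93 and 4.50 in obese rats and differed by 1.76 ± 0.21 (adjusted p = 0.000104), which was 3.38-fold (95% interval 2.49 to 4.6). Msmo1, the sterol C4-methyl oxidase, had 7.63, 8.66, 6.64, 8.04 and 7.28 in rosiglitazone rats, against 5.81, 6.64, 5.77, 6.13 and 5.52 in obese rats and differed by 1.67 ± 0.31 (adjusted p = 0.00584). The sterol reductase Tm7sf2 had 6.80, 7.19, 6.33, 6.42 and 7.14 in rosiglitazone rats, against 5.47, 5.65, 5.20, 5.48 and 5.35 in obese rats and differed by 1.35 ± 0.25 (adjusted p = 0.00584). Ebp, a sterol isomerase, and Sc5d, a sterol desaturase, rose by 0.65 ± 0.12 (adjusted p = 0.00773) and 0.55 ± 0.10 (adjusted p = 0.00372). Dhcr7 and Nsdhl, with differences of 0.79 (adjusted p = 0.211) and 0.13 (adjusted p = 0.705), did not pass.

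Within the rosiglitazone group the enzymes ran together across rats. Rat 2 had the highest level of 7 of the 8 called enzymes and rat 3 the lowest of 7. In the obese group rat 2 was highest for 6 of the 8 and rat 5 lowest for 4. The regulators of the pathway had no calls among 13 tested genes. Srebf2 had a difference of 0.41 ± 0.16 (adjusted p = 0.276), and Insig1, a sterol-responsive anchor of SREBP, had 7.06, 7.37, 6.80, 7.48 and 6.72 in rosiglitazone rats, against 6.62, 8.25, 7.41, 6.95 and 6.40 in obese rats with a difference of -0.04 ± 0.28 (adjusted p = 0.984). Fads1, a desaturase of polyunsaturated fatty acids, had a difference of 1.40 ± 0.38 (adjusted p = 0.0669), and Acss2, which makes acetyl-CoA from acetate, one of 0.52 ± 0.14 (adjusted p = 0.0693). Neither passed.

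**Figure D3:**
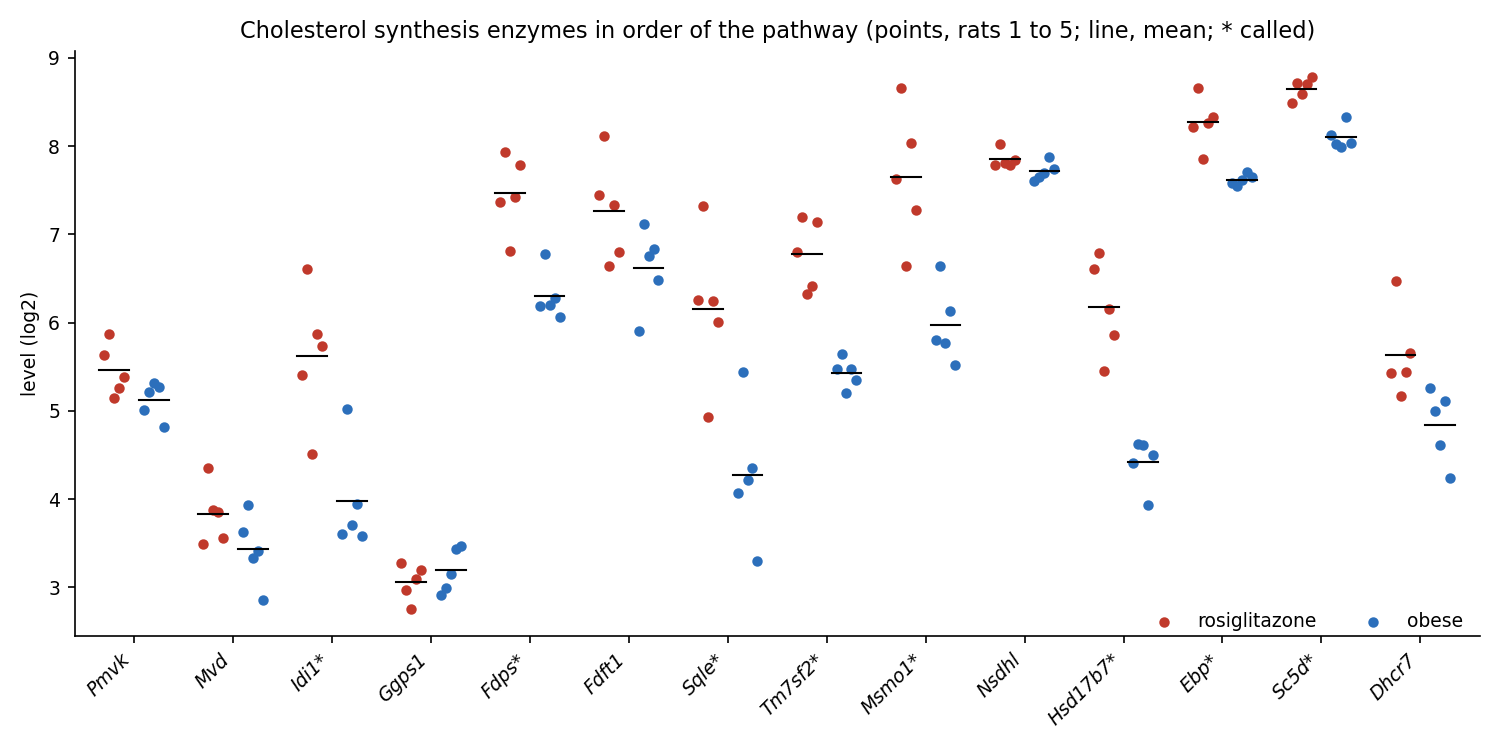
Log2 level (vertical) of 14 enzymes of the cholesterol synthesis list in each rosiglitazone liver (left of each pair) and obese liver (right). They are in pathway order apart from Ggps1, which lies on a side branch. For Sqle, Idi1 and Msmo1 the spread within the rosiglitazone group, between rats 2 and 3, is larger than the difference between the group means.

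Genes tied to PPARγ in fat and in fatty liver were looked at 1 by 1. Of 29 tested genes for lipid uptake and lipid droplets, 1 was called, with a median of 0.08. That gene was Fabp4, a fatty acid carrier of adipocytes and macrophages and a direct PPARγ target, with 3.54, 3.47, 3.79, 3.37 and 3.20 in rosiglitazone rats, against 2.78, 2.58, 2.29, 2.35 and 2.38 in obese rats. No obese value reached the lowest rosiglitazone value, and the difference was 0.9998 ± 0.20 (adjusted p = 0.0108), in every leave-one-out fit. The obese values lie at the array medians, so the fold is not well determined. Macrophage markers rose in the same livers, and their part in the Fabp4 difference was not tested.

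The other genes tied to PPARγ that are given here overlapped between groups. Cd36, the fatty acid translocase, had 7.80, 7.72, 8.64, 8.05 and 8.92 in rosiglitazone rats, against 8.25, 8.11, 8.19, 8.28 and 8.29 in obese rats and a difference of 0.00 with a 95% interval of -0.64 to 0.64. The droplet protein Cidec had 7.19, 6.61, 7.16, 7.19 and 7.35 in rosiglitazone rats, against 7.49, 7.34, 7.52, 7.19 and 7.41 in obese rats and a difference of -0.29 ± 0.15 (adjusted p = 0.445), with an interval of -0.60 to 0.02. Cidea, its relative, had a difference of -0.65 ± 0.25 (adjusted p = 0.274), with an interval of -1.18 to -0.13. For Plin2, the coat protein of lipid droplets, the interval of -1.12 to 1.57 was wide, with rosiglitazone levels of 6.34 to 8.89 and obese levels of 6.76 to 8.71. Pdk4 (-0.87 to 1.76) and Angptl4 (-0.98 to 1.07), 2 fasting-responsive genes, were as variable. Rosiglitazone rat 2 had the lowest Plin2, Pdk4 and Angptl4 of its group. For Acsl1, Slc27a1 and Plin5 the intervals were -0.21 to 0.31, -0.23 to 0.39 and -0.37 to 0.70. Those of Vldlr and Ucp2 were -0.47 to 0.30 and 0.01 to 0.65. Ppargc1a, a coactivator of mitochondrial and gluconeogenic genes, had 5.19, 5.52, 4.27, 5.06 and 4.32 in rosiglitazone rats, against 3.58, 4.74, 4.91, 3.83 and 3.94 in obese rats and a difference of 0.67 ± 0.38 (adjusted p = 0.504).

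Glucose and oxidation genes gave 2 calls, both lower, where 0.454% of all tested genes were lower. Of 39 genes of fatty acid oxidation 2 were lower, namely Bdh1, which interconverts ketone bodies, with 6.81, 7.54, 7.20, 7.21 and 7.13 in rosiglitazone rats, against 7.96, 7.95, 7.76, 7.92 and 7.89 in obese rats and a difference of -0.72 ± 0.12 (adjusted p = 0.00274) in every leave-one-out fit, and Acadm, the medium-chain acyl-CoA dehydrogenase, with -0.42 ± 0.10 (adjusted p = 0.029), lost when any 1 of 8 arrays was left out (up to 0.0791). Cpt1a, the gate of fatty acids into mitochondria, had 9.45, 9.15, 9.20, 9.37 and 9.48 in rosiglitazone rats, against 9.06, 9.15, 9.14, 8.96 and 8.84 in obese rats. The lowest rosiglitazone and the highest obese value were the same to 2 decimals, and the difference of 0.30 ± 0.16 (adjusted p = 0.479) did not pass. Gluconeogenesis (17 tested), glycolysis (15) and fatty acid synthesis (20) had 0 calls, with medians of -0.07, -0.03 and 0.06. Pck1, the rate-limiting gluconeogenic enzyme, had levels of 10.18 to 10.46 in rosiglitazone livers and 10.22 to 10.48 in obese livers, with an interval of -0.23 to 0.17. Srebf1, the lipogenic SREBP gene, had a difference of -0.70 ± 0.26 (adjusted p = 0.256) and did not pass.

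**Figure D4:**
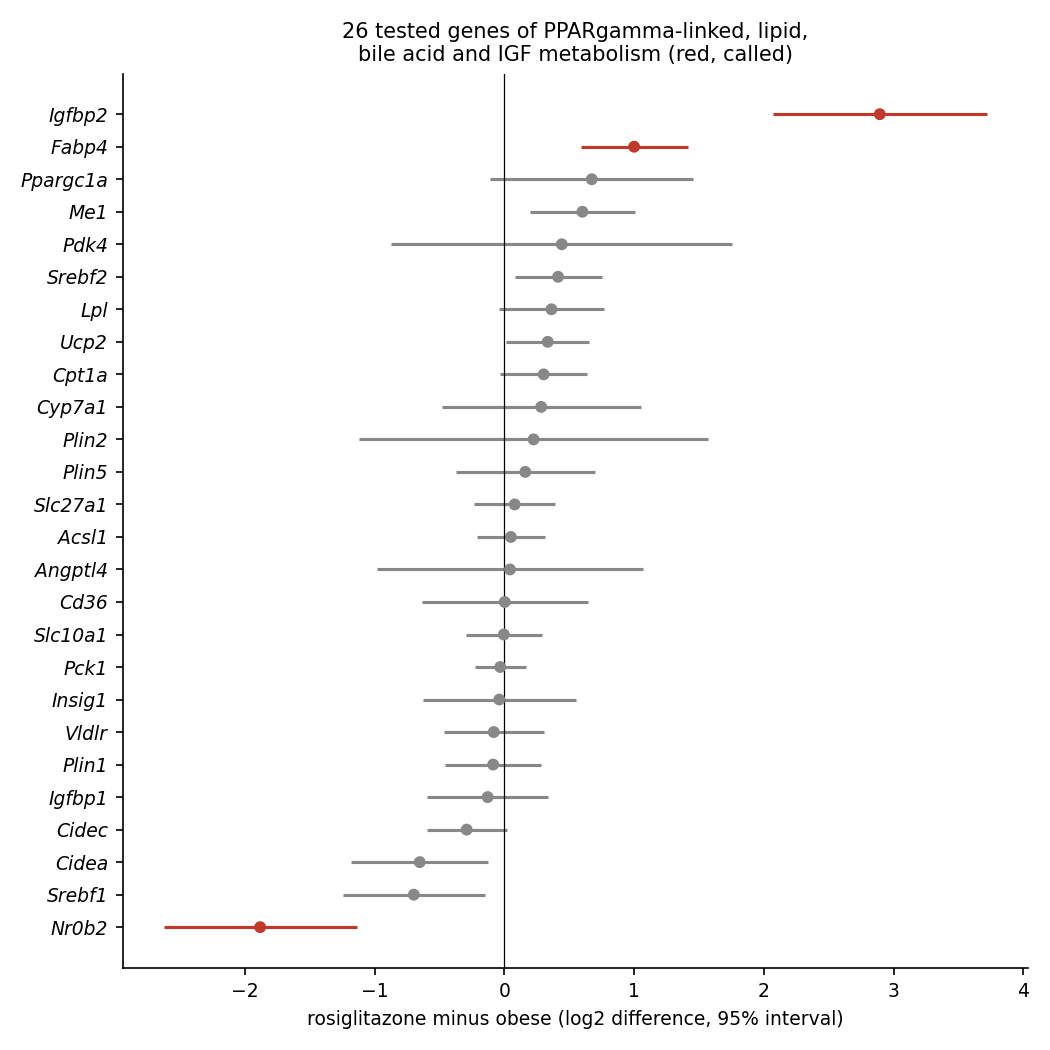
Rosiglitazone minus obese difference (log2, horizontal) with its 95% interval for 26 genes of PPARγ, lipid, glucose and bile acid biology. Igfbp2, Fabp4 and Nr0b2 passed the test across all genes, and the intervals of Plin2, Pdk4 and Angptl4 are the widest.

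Lipoprotein genes had 4 higher calls and 1 lower of 24, against 1.5% called over all tested genes. When single arrays were left out 2 to 4 calls were left in all, with 2 without obese rat 2, 3 or 4 or rosiglitazone rat 1, 4 or 5. Pla1a, a phospholipase that acts on phosphatidylserine, had 4.54, 5.35, 4.59, 4.92 and 4.74 in rosiglitazone rats, against 3.22, 3.21, 3.64, 3.10 and 2.77 in obese rats. The lowest rosiglitazone liver lay well above the highest obese liver, and the difference was 1.64 ± 0.22 (adjusted p = 0.000327). Pltp, the phospholipid transfer protein of plasma, had 5.14, 5.27, 5.03, 5.24 and 5.23 in rosiglitazone rats, against 3.91, 4.11, 4.29, 4.06 and 4.65 in obese rats and differed by 0.98 ± 0.17 (adjusted p = 0.00274). Both held in every leave-one-out fit. Abcg1, a cholesterol exporter, and Apom, an HDL apolipoprotein, rose by 0.59 and 0.51, whereas Lipc, hepatic lipase, fell by 0.47. The calls of Abcg1 and Lipc were each lost when any 1 of 8 arrays was left out (up to 0.104 and 0.0943) and that of Apom when any 1 of the 10 was (up to 0.111). Lpl had a difference of 0.36 ± 0.19 (adjusted p = 0.477).

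Secreted proteins of the liver included the largest higher calls. Igfbp2, a binding protein that holds insulin-like growth factors in plasma and whose gene insulin represses, had 5.44, 6.47, 5.04, 6.42 and 4.11 in rosiglitazone rats, against 2.18, 2.92, 3.68, 2.03 and 2.20 in obese rats. All 5 rosiglitazone livers lay above all obese livers, the lowest being rat 5. The difference was 2.89 ± 0.40 (adjusted p = 0.000327), and the call held in every leave-one-out fit. Of the 5 obese values 3 lay below the lowest array median, so the size of this difference is poorly determined. Its relative Igfbp1, another insulin-repressed gene, had means of 8.60 in rosiglitazone and 8.72 in obese livers and a difference of -0.13 ± 0.23 (adjusted p = 0.894). Serpina7, thyroxine-binding globulin, had 5.22, 6.12, 5.64, 5.12 and 6.65 in rosiglitazone rats, against 3.30, 3.20, 4.04, 3.98 and 2.69 in obese rats and differed by 2.31 ± 0.53 (adjusted p = 0.029), a call lost when any 1 of 5 arrays was left out (up to 0.0818, without obese rat 5).

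Acute phase genes are those that hepatocytes raise in response to interleukin 6. Of 22 tested members 4 were higher, against 1.04% of all tested genes, with 20 differences above 0 and a median of 0.24. A2m, alpha-2-macroglobulin, the main acute phase protease inhibitor of rats, had 6.46, 6.71, 4.69, 5.30 and 8.37 in rosiglitazone rats, against 2.75, 2.96, 3.79, 2.72 and 2.34 in obese rats. Rosiglitazone rat 3 was lowest and rat 5 highest in its group, far apart, and both lay above all obese rats. The difference was 3.40 ± 0.80 (adjusted p = 0.0334), and it no longer passed without 8 of the 10 arrays in turn (0.0951 without rosiglitazone rat 5). Fgl1, a fibrinogen-like hepatokine, had 9.36, 9.09, 9.28, 9.04 and 10.0001 in rosiglitazone rats, against 8.38, 7.74, 7.70, 8.14 and 7.51 in obese rats and differed by 1.46 ± 0.27 (adjusted p = 0.006), in every leave-one-out fit. Lbp, which carries lipopolysaccharide, had 8.57, 8.34, 8.74, 8.67 and 9.74 in rosiglitazone rats, against 8.01, 7.64, 7.61, 7.50 and 7.64 in obese rats and differed by 1.13 ± 0.29 (adjusted p = 0.0478). Stat3, the transcription factor of this response, had 7.72, 7.43, 7.83, 7.55 and 8.32 in rosiglitazone rats, against 7.23, 7.09, 6.72, 6.74 and 6.82 in obese rats and differed by 0.85 ± 0.21 (adjusted p = 0.04). Rosiglitazone rat 5 was the highest of its group for all 4 genes. Without it the adjusted p was 0.136 for Lbp and 0.115 for Stat3, and the list had 1 to 3 calls over all single-array omissions, with 1 without rosiglitazone rat 1 or 5 or any of obese rats 2 to 5.

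Of 10 tested plasma carriers and other proteins that fall in the acute phase 1 (Serpina7) was higher and 2 were lower, with a median of -0.09, and 0 calls were left without rosiglitazone rat 5 and 1 without any of 5 other arrays. Serpina6, corticosteroid-binding globulin, had 7.34, 7.74, 6.63, 7.09 and 6.08 in rosiglitazone rats, against 7.62, 7.91, 7.63, 8.27 and 8.13 in obese rats. Rosiglitazone rat 2 overlapped the obese rats, and the difference was -0.94 ± 0.22 (adjusted p = 0.0335), lost when any 1 of 6 arrays was left out (up to 0.0981). Alb, albumin, had a difference of -0.18 ± 0.08 (adjusted p = 0.354) and did not pass. Igfals, the growth hormone-induced subunit that stabilises circulating insulin-like growth factors, had 4.67, 5.04, 4.10, 4.38 and 4.40 in rosiglitazone rats, against 5.14, 5.16, 5.63, 5.51 and 5.30 in obese rats and differed by -0.83 ± 0.18 (adjusted p = 0.0228), lost when any 1 of 5 was left out (up to 0.0764).

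**Figure D5:**
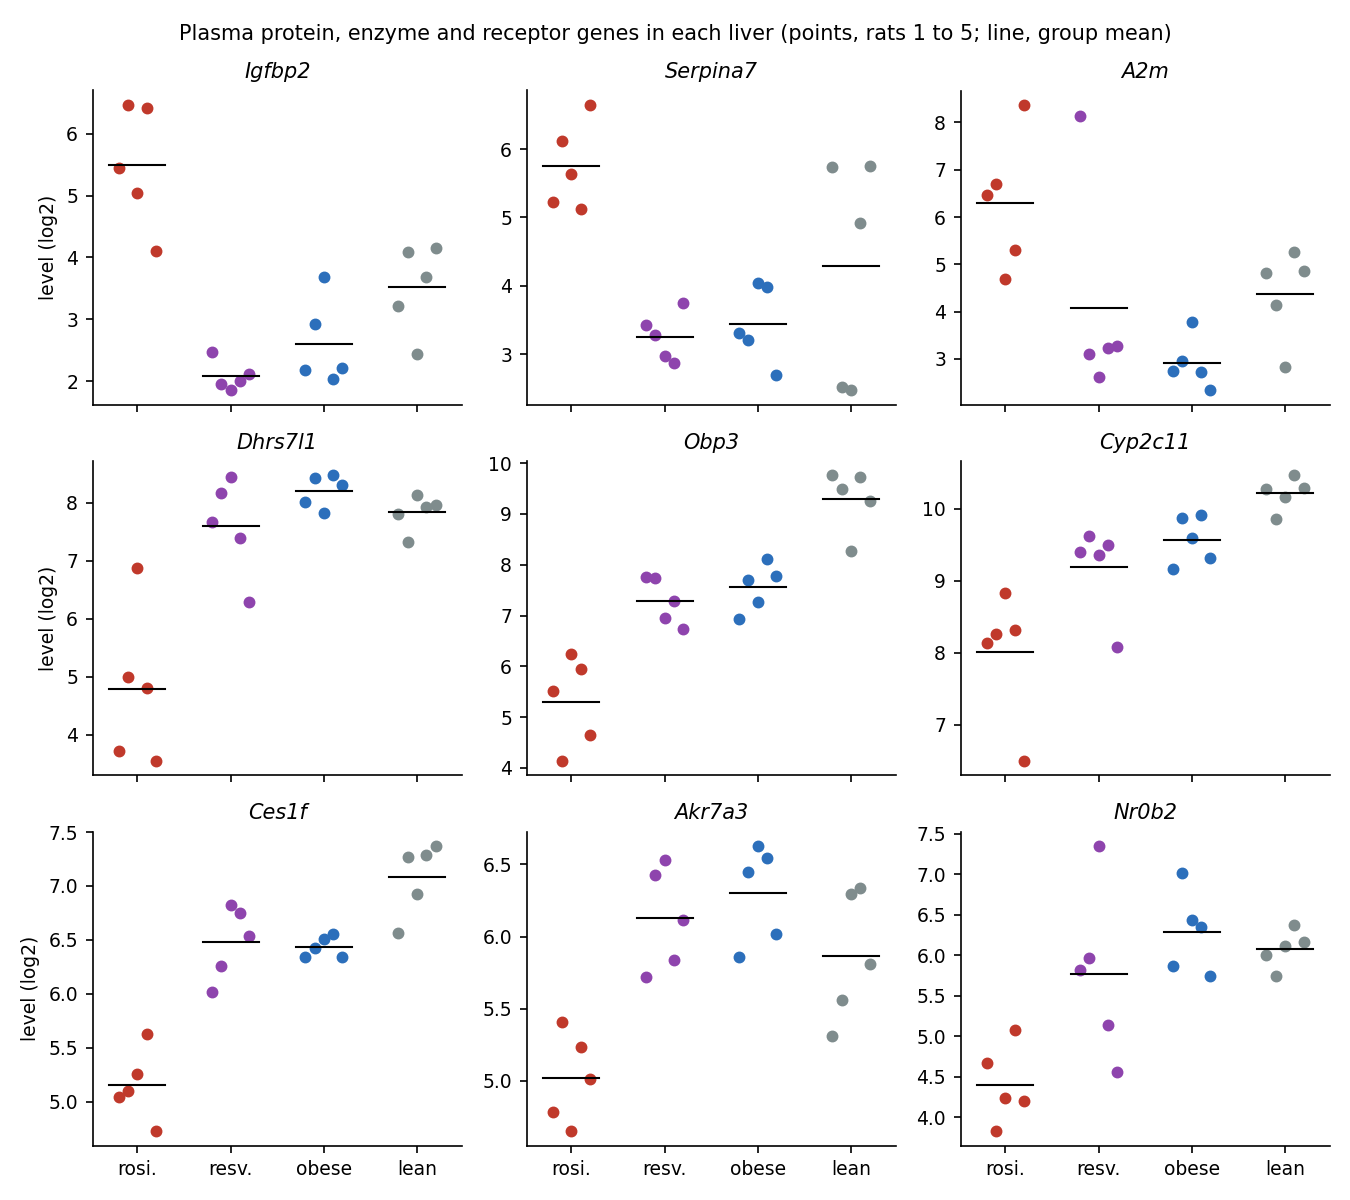
Log2 level (vertical) of Igfbp2, Serpina7, A2m, Dhrs7l1, Obp3, Cyp2c11, Ces1f, Akr7a3 and Nr0b2 in each rat, with rosiglitazone, resveratrol, obese and lean control left to right. The first 3 genes are higher and the other 6 lower in rosiglitazone than in obese livers.

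Several lower calls lay in the lists of male-pattern and drug-processing genes. In male rats growth hormone is released in pulses, and these pulses sustain a set of liver genes that females express less. Of 20 genes of the growth hormone and male-pattern list 5 were lower and 1, Serpina7, was higher, with a median of -0.20, and 3 calls were left without rosiglitazone rat 5. The mean level of the list was 5.79 to 6.20 in rosiglitazone livers and 6.31 to 6.50 in obese livers. Dhrs7l1, a short-chain dehydrogenase/reductase, had 3.71, 4.99, 6.87, 4.80 and 3.55 in rosiglitazone rats, against 8.01, 8.42, 7.82, 8.47 and 8.31 in obese rats. Rosiglitazone rat 3 came nearest to the obese livers and still lay below the lowest of them. The difference was -3.42 ± 0.45 (adjusted p = 0.00031), with a level 10.7-fold higher in obese livers. Obp3, a lipocalin of the major urinary protein family, had 5.52, 4.14, 6.25, 5.95 and 4.65 in rosiglitazone rats, against 6.93, 7.70, 7.27, 8.12 and 7.77 in obese rats and differed by -2.25 ± 0.35 (adjusted p = 0.00131). Cyp2c11, the main male-specific cytochrome P450 of the rat, had 8.14, 8.26, 8.83, 8.32 and 6.50 in rosiglitazone rats, against 9.17, 9.87, 9.59, 9.91 and 9.32 in obese rats and differed by -1.56 ± 0.32 (adjusted p = 0.015). These 3 held in every leave-one-out fit.

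Cyp3a9, a P450 known to be higher in female rats and so opposite to the name of the list, fell by 0.74 (adjusted p = 0.0238), lost when any 1 of 4 arrays was left out (up to 0.0722). The gene with the largest difference of all those tested, named here after its value was seen, has only a LOC symbol. LOC100360095, which RefSeq gives the synonym Rup-4, had 7.64, 5.09, 8.24, 5.80 and 3.59 in rosiglitazone rats, against 9.81, 10.41, 9.79, 10.48 and 9.98 in obese rats and differed by -4.02 ± 0.55 (adjusted p = 0.000327). The order of the rosiglitazone rats differed between these genes, but rat 5 had the lowest Dhrs7l1, Cyp2c11 and LOC100360095. Obp3, LOC100360095, the carboxylesterases, the Cyp2c genes and the Ugt2b genes have close relatives in the rat genome, and a probe set may read more than 1 of them.

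Enzymes that process drugs and foreign compounds had calls in both directions. Of 48 hydrolases and reductases 4 were lower, Dhrs7l1 among them, and 1 was higher, with a median of -0.16. Among the 48 differences 11 were above 0. Ces1f, a carboxylesterase, had 5.05, 5.10, 5.26, 5.63 and 4.72 in rosiglitazone rats, against 6.34, 6.43, 6.51, 6.55 and 6.34 in obese rats and differed by -1.28 ± 0.18 (adjusted p = 0.000327). Akr7a3, an aldehyde reductase that detoxifies aflatoxin, had 4.79, 5.41, 4.65, 5.23 and 5.01 in rosiglitazone rats, against 5.86, 6.45, 6.63, 6.54 and 6.02 in obese rats and differed by -1.28 ± 0.21 (adjusted p = 0.0024). Both held throughout. Ces2h, near the floor of the arrays in rosiglitazone livers, had 2.80, 2.25, 2.59, 2.02 and 2.54 in rosiglitazone rats, against 3.32, 4.01, 4.15, 3.54 and 3.68 in obese rats and differed by -1.30 ± 0.30 (adjusted p = 0.031), lost when any 1 of 7 arrays was left out (up to 0.0898). The lists gave 3 calls of 43 P450 genes (1 higher, 2 lower) and 3 of 34 conjugation enzymes (1 higher, 2 lower). Differences above 0 numbered 15 of 43 for P450 genes and 7 of 34 for conjugation enzymes. Over all tested genes the called share was 1.5%. The hydrolase and reductase list had 3 calls without obese rat 2, 3 or 5 or rosiglitazone rat 5. The P450 list had 1 when rosiglitazone rat 1 or 5 or obese rat 5 was omitted, and 5 when obese rat 1 was. The conjugation list had 1 when rosiglitazone rat 1, 4 or 5 or obese rat 2 or 4 was omitted.

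Cyp1a1, the P450 induced by the aryl hydrocarbon receptor, had 3.50, 3.14, 2.61, 2.69 and 3.34 in rosiglitazone rats, against 2.30, 1.88, 1.99, 2.23 and 1.63 in obese rats and rose by 1.05 ± 0.22 (adjusted p = 0.0182), lost when rosiglitazone rat 1 or 5 or obese rat 5 was omitted (up to 0.0619). All 5 obese values lay below the lowest array median, so the size of the difference is poorly determined. Nqo1, a quinone reductase, had 4.76, 5.34, 4.38, 4.58 and 5.75 in rosiglitazone rats, against 4.19, 3.64, 3.68, 4.11 and 3.77 in obese rats and differed by 1.09 ± 0.25 (adjusted p = 0.0279), lost when any 1 of 5 was left out (up to 0.0804). Nqo1 and Hmox1 were the 2 calls among 28 genes of the NRF2 and heme list, whose median was -0.06. Of the conjugation enzymes, the glucuronosyltransferase Ugt2b1 was higher (0.77 ± 0.15, adjusted p = 0.0108) in every leave-one-out fit, while Gsta2, a glutathione transferase (-1.05 ± 0.23, adjusted p = 0.0214), and Nat8f2 (-1.59 ± 0.38, adjusted p = 0.0348) were lower and were lost when any 1 of 6 and 8 arrays was left out (up to 0.0674 and 0.0898).

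Of 21 bile acid genes 2 were lower, against 0.454% of all tested genes. Nr0b2, small heterodimer partner (SHP), a corepressor that bile acids induce through FXR and that represses bile acid synthesis, had 4.67, 3.83, 4.23, 5.07 and 4.20 in rosiglitazone rats, against 5.86, 7.02, 6.44, 6.35 and 5.75 in obese rats. Every rosiglitazone liver lay below every obese liver, and the difference was -1.88 ± 0.36 (adjusted p = 0.00723), a level 3.69-fold higher in obese livers, in every leave-one-out fit. Baat, which joins bile acids to glycine and taurine, differed by -0.47 ± 0.12 (adjusted p = 0.0442), lost when any 1 of 8 arrays was left out (up to 0.118). Cyp7a1, the rate-limiting enzyme of bile acid synthesis, had 8.19, 7.41, 7.41, 8.27 and 6.81 in rosiglitazone rats, against 6.57, 6.88, 7.62, 8.26 and 7.34 in obese rats and a difference of 0.28 ± 0.37 (adjusted p = 0.848) with an interval of -0.48 to 1.05. For Slc10a1, the bile acid importer of hepatocytes, the interval was -0.30 to 0.29.

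Of the 142 calls 72 were in none of the lists. Echdc1, a decarboxylase that removes the stray metabolite ethylmalonyl-CoA, had 4.59, 5.26, 4.70, 4.88 and 5.04 in rosiglitazone rats, against 3.53, 3.23, 3.32, 3.11 and 3.36 in obese rats and differed by 1.58 ± 0.15 (adjusted p = 8.72e-06), the smallest adjusted p of the comparison. Slc22a8, an organic anion transporter, had 6.34, 5.90, 6.95, 6.33 and 6.18 in rosiglitazone rats, against 7.71, 7.17, 7.22, 6.96 and 7.98 in obese rats and differed by -1.07 ± 0.19 (adjusted p = 0.00377). Pde8b, a phosphodiesterase of cyclic AMP, had 3.03, 2.46, 2.90, 2.92 and 2.63 in rosiglitazone rats, against 3.64, 3.63, 4.09, 4.15 and 4.42 in obese rats and differed by -1.20 ± 0.21 (adjusted p = 0.00359). These 3 did not overlap between groups and held in every leave-one-out fit. Aldh1l2, the mitochondrial formyltetrahydrofolate dehydrogenase, had 6.83, 6.35, 6.54, 6.33 and 7.69 in rosiglitazone rats, against 7.68, 7.71, 7.78, 7.81 and 7.84 in obese rats. Rosiglitazone rat 5 lay among the obese rats, and the difference of -1.02 ± 0.21 (adjusted p = 0.017) was lost without rosiglitazone rat 4 (0.058). The zinc finger gene Zfp354a fell by 1.24 (adjusted p = 0.0182), lost when any 1 of 4 arrays was left out (up to 0.0605). Tle3, Src, Mgmt, Dnah9 and Rps26l1 were also lower, by 0.93, 0.87, 0.80, 1.14 and 1.18, each lost without 5 to 9 single arrays. Further calls that held throughout were chosen after their values were seen. They were the growth factor gene Vegfb (0.96 ± 0.15, adjusted p = 0.0011), the regulatory subunit of protein kinase A, Prkar2a (0.79 ± 0.12, adjusted p = 0.0011), and the citrate transporter Slc13a5 (0.97 ± 0.16, adjusted p = 0.00185), whose obese levels of 2.12 to 2.47 lay at the array medians.

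Rosiglitazone livers were then set against resveratrol livers, with the same rosiglitazone arrays and the spread still estimated over all 20 arrays, the obese ones included. At the same threshold 84 genes, 0.886% of those tested, were called, 49 higher and 35 lower in rosiglitazone livers. Leaving out single arrays was done for rosiglitazone against obese only. Resveratrol against obese livers had 1 call, the malic enzyme gene Me1 (1.35 ± 0.19, adjusted p = 0.00641), with 505 genes at an unadjusted p below 0.05 in limma, against 1153 for rosiglitazone against obese. Igfbp2 averaged 5.50 ± 0.99 in rosiglitazone livers, against 2.08 ± 0.24 in resveratrol livers (SD, 5 rats each), and differed by 3.42 ± 0.40 (adjusted p = 8.87e-05). Pla1a differed by 1.91 ± 0.22 (adjusted p = 8.87e-05), Echdc1 by 1.35 ± 0.15 (adjusted p = 8.87e-05), Fabp4 by 1.16 ± 0.20 (adjusted p = 0.00488), Serpina7 by 2.49 ± 0.53 (adjusted p = 0.0241) and Ces1f by -1.33 ± 0.18 (adjusted p = 0.000347). Dhrs7l1 (-2.81 ± 0.45, adjusted p = 0.00285), Obp3 (-1.99 ± 0.35, adjusted p = 0.00565), Slc22a8 (-1.09 ± 0.19, adjusted p = 0.00512) and Bdh1 (-0.79 ± 0.12, adjusted p = 0.00203) were lower.

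Of the macrophage markers 9 were called higher in rosiglitazone than in resveratrol livers, among them Cd5l (1.25 ± 0.18, adjusted p = 0.000717), Vsig4 (0.96 ± 0.19, adjusted p = 0.0126) and Cd68 (0.75 ± 0.14, adjusted p = 0.00715), with list levels of 4.83 to 5.10 in resveratrol livers. Marco had a difference of 1.26 ± 0.32 (adjusted p = 0.066) and did not pass. Of the cholesterol enzymes 3 passed, namely Sqle (1.71 ± 0.40, adjusted p = 0.0393), Hsd17b7 (1.26 ± 0.21, adjusted p = 0.00488) and Sc5d (0.42 ± 0.10, adjusted p = 0.0378). For A2m (2.23 ± 0.80, adjusted p = 0.228), Nr0b2 (-1.37 ± 0.36, adjusted p = 0.0809), Cyp2c11 (-1.18 ± 0.32, adjusted p = 0.0939) and Cd74 (0.75 ± 0.21, adjusted p = 0.108) the difference did not pass. For A2m resveratrol rat 1 stood at 8.14 and the other resveratrol rats at 2.62 to 3.28, so that 1 rat made most of the SD of 2.29.

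Against lean control livers 229 genes, 2.42% of those tested, were called, 96 higher and 133 lower in rosiglitazone livers. Macrophage markers had levels of 4.87 to 5.51 in lean livers, and 3 of 23 were called against them. Cd5l was higher in rosiglitazone livers by 0.76 ± 0.18 (adjusted p = 0.0216) and lower in obese than in lean livers, with a difference of -0.79 ± 0.18 (adjusted p = 0.0244). C1qa, by contrast, had a rosiglitazone minus lean difference of 0.04 ± 0.10 (adjusted p = 0.907) and an obese minus lean difference of -0.56 ± 0.10 (adjusted p = 0.0133). Adgre4 (-0.96 ± 0.15, adjusted p = 0.00577), Ptgs1 (-0.63 ± 0.10, adjusted p = 0.00577), Hpgds (-0.82 ± 0.15, adjusted p = 0.0125) and Pltp (-0.68 ± 0.17, adjusted p = 0.0352) were lower in obese than in lean livers too, and rosiglitazone minus lean differences were 0.02 ± 0.15 (adjusted p = 0.968), 0.28 ± 0.10 (adjusted p = 0.167), 0.12 ± 0.15 (adjusted p = 0.788) and 0.30 ± 0.17 (adjusted p = 0.411). Because both contrasts use the same lean arrays, and rosiglitazone minus obese uses the same obese arrays, they are given side by side only.

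Among the lower genes given here, both contrasts with lean livers passed for Obp3 only. Obp3 averaged 5.30 ± 0.89 in rosiglitazone, 7.56 ± 0.46 in obese and 9.30 ± 0.61 in lean livers (SD), with a rosiglitazone minus lean difference of -4.0003 ± 0.35 (adjusted p = 1.37e-06) and an obese minus lean difference of -1.75 ± 0.35 (adjusted p = 0.019). Ces1f and Igfals had rosiglitazone minus lean differences of -1.93 ± 0.18 (adjusted p = 1.37e-06) and -1.39 ± 0.18 (adjusted p = 0.00032), and obese minus lean differences of -0.65 ± 0.18 (adjusted p = 0.0586) and -0.57 ± 0.18 (adjusted p = 0.102). Pde8b had means of 2.79 in rosiglitazone livers, 3.99 in obese livers and 2.93 in lean livers, with differences of -0.14 ± 0.21 (adjusted p = 0.824) for rosiglitazone minus lean and 1.06 ± 0.21 (adjusted p = 0.0165) for obese minus lean. Igfbp2 (mean 3.52 in lean livers) and Hsd17b7 (4.89) were higher in rosiglitazone than in lean livers, by 1.98 ± 0.40 (adjusted p = 0.00737) and 1.29 ± 0.21 (adjusted p = 0.00161). Of the 14 cholesterol enzymes 4 were called against lean livers. The list had a median of 0.51 for rosiglitazone minus lean and -0.32 for obese minus lean. Its mean level was 5.44 to 6.13 in lean livers and 5.89 to 6.98 in rosiglitazone livers, which overlap. Cd36 differed from lean controls in both groups, by 1.57 ± 0.31 (adjusted p = 0.00674) in rosiglitazone livers and 1.56 ± 0.31 (adjusted p = 0.0165) in obese livers.

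Several lists had no call between rosiglitazone and obese livers. They included genes of oxidative phosphorylation (53 tested, median -0.12), amino acid metabolism (43, -0.12), ER stress (25, 0.10), cell cycle (27), extracellular matrix (30) and immediate-early response (24, -0.30). Differences above 0 numbered 6 of 53 for oxidative phosphorylation, 10 of 43 for amino acid metabolism and 17 of 25 for ER stress. They numbered 8 of 27 for cell cycle, 19 of 30 for extracellular matrix and 8 of 24 for immediate-early response. None of 11 clock genes was called, with a median of -0.06. A score of clock genes, whose level follows the time of day, ran between -2.06 and 1.20 in rosiglitazone livers and between -2.002 and 1.01 in obese livers. With this score as a covariate 170 genes were called, including all 142.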

How the data were processed

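Liver RNA of 20 male rats with the strain tag Zucker (5 each labelled rosiglitazone, resveratrol, obese and lean control) was measured on Affymetrix Rat Gene ST arrays from 100 ng of total RNA. The deposited values are log2 expression values that the authors made with RMA (background correction, quantile normalisation and probe set summary). No version of it is given in the sources used here. All 20 columns were assigned from the titles and characteristics of the samples.

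Of 36685 probe sets, 14824 had a single gene symbol, 829 had several and 21032 were unnamed here. For each of 14557 genes the probe set with the highest mean over 20 arrays was kept (234 genes had more than 1), and 9481 genes above their array's percentile 50 in at least 5 arrays were tested. All groups entered 1 linear model without covariates in limma 3.58.1 (R 4.3.3), with 16 residual degrees of freedom and 5.40 prior degrees of freedom from eBayes, and two-sided p-values were adjusted by Benjamini-Hochberg over the 9481 genes, with calls at an adjusted p below 0.05. The median residual SD was 0.242, which, with 5 arrays per group, limits the precision. The model was tested on simulated data. Promoters came from RefSeq (GRCr8), and gene IDs matched RefSeq for 14670 probe sets.

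Named genes are the 20 highest and 20 lowest called genes with an established symbol, every called member and up to 4 further members of each described list, and 39 genes of PPARγ, lipid, glucose and bile acid biology, of which 26 were tested. The other genes of that set were not analysed here. The comparison, its 42 gene lists and the tests were chosen with earlier results of these data known. Alternatives covered the filter, the normalisation, the arrays in the model, variance trend, weights per array, a block for the replicate number and the choice of probe set. They also covered stricter call rules, a clock score built from 4 high and 4 low genes, and each rosiglitazone or obese array left out in turn.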

Additional observations from a re-analysis of the deposited data

Results flagged for a closer look

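In groups of 5 rats a value was marked when its gap to the nearest of the other 4 exceeded Dixon's critical share of the range, 0.71. This was done for the 142 called genes in rosiglitazone and obese livers, 284 groups in all, and 18 values were marked, where chance gives about 5% of groups. Rosiglitazone rat 5 was marked for Lbp (9.74, the other 4 at 8.34 to 8.74), C4bpa (9.89, the others at 9.25 to 9.34), Echdc2 (5.10), Hagh (6.80) and Rps26l1 (2.30). It was above its group for Lbp and C4bpa and below it for the other 3. Rosiglitazone rat 2 was marked for Acy3 (6.52), F8a1 (3.55) and Dnah9 (2.81), all above its group, and for Igsf6 (3.79), below it. Rosiglitazone rat 1 was marked for Cfd (4.04, below) and Mgmt (5.20, above). Among obese livers, rat 1 was marked for Ccl6 (6.36), Nat8f2 (4.12) and Myo9a (3.22), below its group, and for Lbp (8.01), above it. Obese rat 2 was marked for Idi1 (5.02, the others at 3.59 to 3.94), obese rat 3 for Ptgs1 (3.91, below) and obese rat 5 for Zfp462 (1.66, below).

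Probe sets without a single gene symbol were not part of the comparison of genes. When every probe set above the same filter was tested on its own, 20681 entered the test and 104 were called, and 38 of these calls fell among the 11034 tested probe sets with no single symbol (21 higher and 17 lower in rosiglitazone livers). They are unnamed here.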

How the results depend on the processing

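Relative to 142 called genes (99 higher, 43 lower), 100 were called with no filter on low values, with 25 lower, 148 with a filter at percentile 75, 143 after a further quantile normalisation, 112 with arrays centred on their median, 160 with a mean-variance trend and 188 with array weights, of which 142 were among the original calls. Both trend and weights gave 5 P450 calls. At an adjusted p below 0.01 there were 44 calls (35 higher, 9 lower), with 0 of the P450 genes and 3 of the hydrolases and reductases, and a fold of at least 1.5 left 114. With each of 20681 probe sets tested on its own there were 104 calls, including 3 hydrolases and reductases. A model of the rosiglitazone and obese arrays alone called 142 genes, 110 of them in common. Leaving out single arrays gave 69 to 129 calls, 53 to 96 of them higher and 16 to 47 lower, with 1 to 5 P450 genes, 3 to 5 hydrolases and reductases, 9 to 12 macrophage markers and 6 to 8 cholesterol enzymes. No call changed direction under these alternatives. Same-numbered rats share only a number: the correlation of their deviations from the group means was -0.13, 0.04, -0.11, -0.07 and 0.06 for numbers 1 to 5, and 1 of 10 arrays correlated best with its own number. With the replicate block 108 genes were called (73 higher, 35 lower), 100 of the 142 among them.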
